A study of Mus musculus with 6 samples.

Results

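The genes of the proteasome were read in mouse Th2 cells before and after TCR stimulation, after knockdown of GATA3 and at an early and a late stage of culture. The members are the genes whose symbol starts with Psm, followed by a letter from a to g and a number. Such a symbol was borne by 49 of the 18194 genes named by a probe set of their own, each read through its brightest probe set by mean log2 signal over the 6 arrays. Of these, 47 encode subunits, activators, an inhibitor or assembly chaperones of the proteasome. Psmc3ip and Psme3ip1, named after proteins that bind such subunits, match by name only. Psme2 and Psme2b shared a probe set and were not analysed here. Signals were above the array median on all 6 arrays for 47 of the 49, and 45 belonged to the 4549 brightest genes by mean log2 signal, called bright genes below. The exceptions were Psma8 and Psmb11, subunits of testis and of thymus, which read below the median on every array. The 45 genes left without these and without Psmc3ip and Psme3ip1 are called the core members.

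The proteasome is the protease that degrades proteins marked with ubiquitin. Its 20S core is a barrel of alpha rings, which gate the entry, around beta rings, which hold the catalytic sites, and the 19S regulatory particle, made of a base of ATPases and a lid, binds and unfolds the substrate and removes ubiquitin. In lymphocytes and under interferon gamma, the catalytic subunits Psmb5, Psmb6 and Psmb7 are replaced by Psmb8, Psmb9 and Psmb10 to form the immunoproteasome, which produces peptides for MHC class I molecules, and the ring-shaped PA28 activators can take the place of the 19S particle.

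Splenic CD4 T cells of C57BL/6 mice were cultured for 5 days under Th2 conditions to give effector cells, Th2-1st, in the presence of IL-2 at 25 U/ml plus IL-4 at 100 U/ml. For fully developed cells, Th2-4th, a rest of 2 days without cytokines and 5 days with anti-TCR mAb, IL-2 and anti-IL-4 mAb followed, and this was done 3 times. The stages therefore differ also by the anti-IL-4 antibody. For each stage, 1 array held control siRNA cells left unstimulated, 1 held control siRNA cells after 4 h on immobilized anti-TCR mAb and 1 held GATA3 siRNA cells after the same stimulation, which began 24 h after the siRNA. All cells carried a siRNA, and no array held untransfected cells or unstimulated cells with GATA3 siRNA. Where 6 signals are given below, they follow this order, Th2-1st first. Each condition has 1 array, so nothing here was checked in replicates and p-values are not given. In their place stands the spread, a robust SD of the log2 ratios of genes with similar signals. It holds real changes too and is no measure of replicate error.

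Signals are linear intensities, already brought to a common mean of 500.0 on each array after 2% of probe sets were left out at each end, and the array medians ran from 61.8 to 74.2. A signal depends on its own probes, so levels of single genes were compared only within a gene. The summed signals of markers and of members mix different probes and serve only as a rough guide. The measured T cell markers Cd3d, Cd3e, Cd3g, Cd4 and Cd5 were above the array median on all 6 arrays. Over the arrays, the summed signal ran from 108 to 199 for 4 B cell markers, from 243 to 394 for 6 myeloid markers and from 7.38 to 31.4 for 2 erythroid markers, against 29827 to 62746 for the 5 T cell markers, and no marker was at 0. Gata3, the target of the siRNA, read 3312, 4883 and 1798 on the Th2-1st arrays, then 4846, 9261 and 2853 on those of Th2-4th, so that knockdown gave log2 ratios of -1.44 and -1.70. In bulk RNA, fewer cells that express a gene and less RNA per cell cannot be told apart.

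After anti-TCR stimulation most proteasome genes read a little higher in both cultures, while the catalytic subunits of the immunoproteasome read lower. Of the 49 members, 40 at the Th2-1st stage and 36 at the Th2-4th stage had a log2 ratio of stimulated to unstimulated above 0, and the median was 0.31 in both. Among all 18194 genes, 8997 and 8443 were above 0, with medians of -0.01 and -0.10. Among the 4549 bright genes these were 2258 and 2146, with medians of -0.01 and -0.06. By more than their own spread, 12 members read higher and 0 lower in Th2-1st cells, and 6 higher and 2 lower in Th2-4th cells. How many of all genes passed their own spread was not counted. In Th2-1st cells, 8 members were over 1.5-fold, where 27.3% of all genes were, and 2 were under 1/1.5-fold, where 28.0% of all genes were. In Th2-4th cells, these were 11 members beside 27.6% of all genes, and 4 members beside 33.1%. With each array centred on its median over all genes, 19 members were over and 1 under the limits for Th2-1st, and 19 and 2 for Th2-4th cells. Dim genes with noisy ratios make up much of that background, and among the bright genes 20.2% and 21.3% were past the limits in Th2-1st cells. These shares of bright genes were, for Th2-4th cells, 24.5% and 26.5%. Among the 45 core members, the share over the upper limit was 15.6% at the Th2-1st and 22.2% at the Th2-4th stage, and the share under the lower one was 2.22% and 6.67%. Both shares were thus below those of bright genes, while the median lay above theirs.

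**Figure D1:**
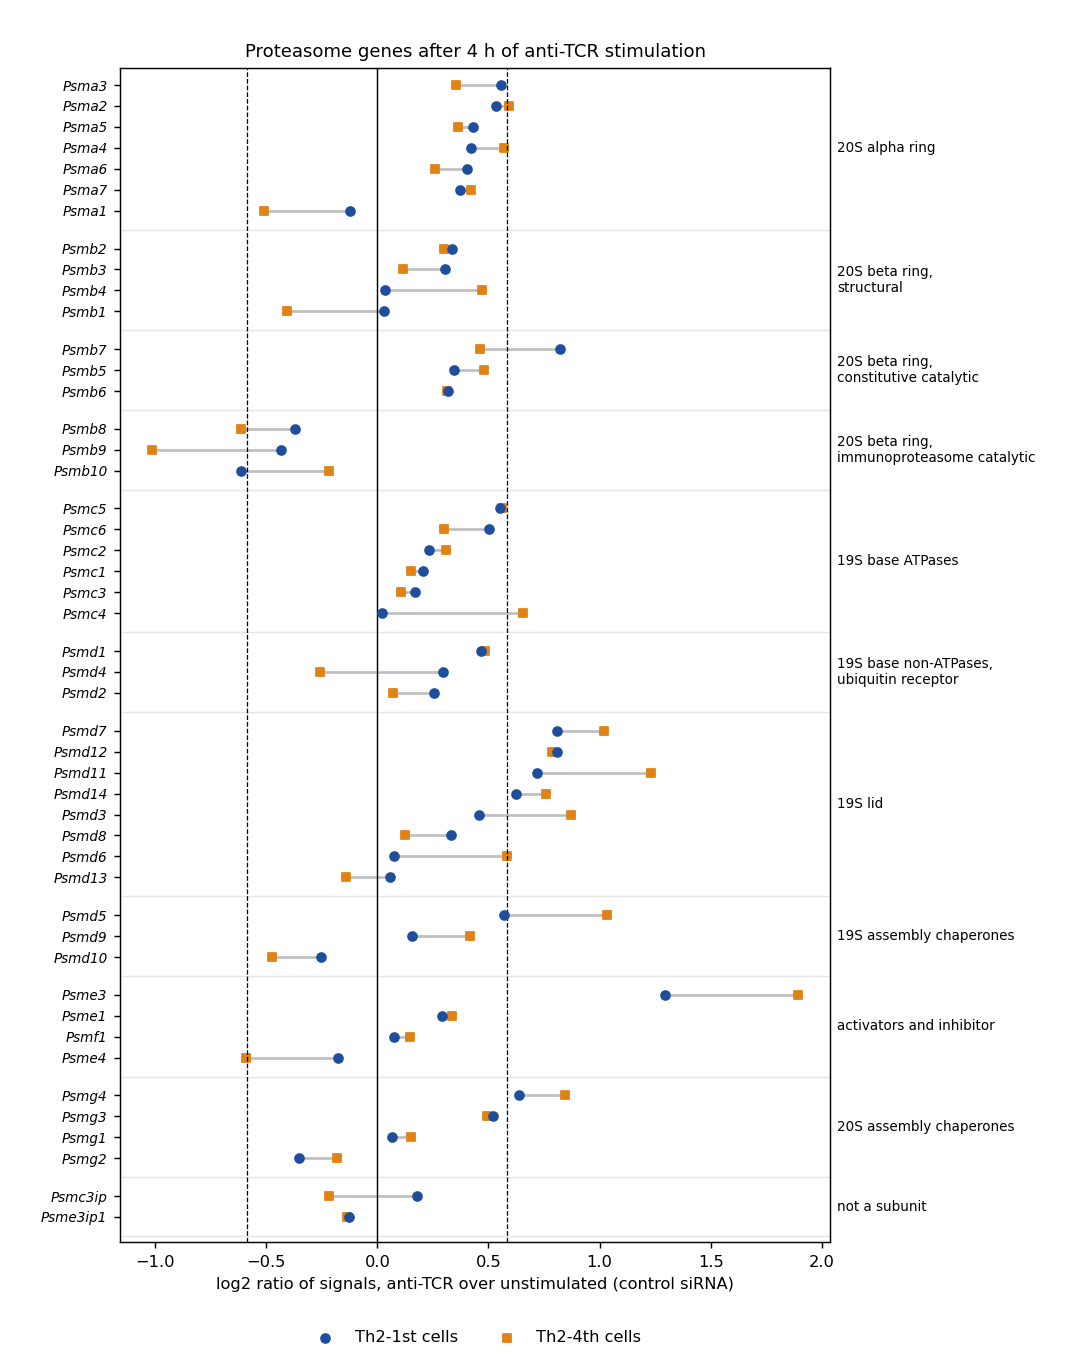
Log2 ratio of the anti-TCR to the unstimulated array (horizontal axis, control siRNA) for the 47 members above the array median on all 6 arrays, 1 row per gene, grouped by role. Blue circles are Th2-1st cells, orange squares Th2-4th cells, dashed lines 1.5-fold, and the 19S lid and Psme3 (1.29 and 1.89) lie farthest to the right while Psmb8, Psmb9 and Psmb10 lie left of 0 in both cultures.

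The 19S regulatory particle leaned upward as a whole. All 17 of its measured genes at the Th2-1st stage and 15 at the Th2-4th stage had a ratio above 0, with medians of 0.33 and 0.48. The lid, which holds the deubiquitinase of the particle, had the highest medians of the role groups with more than 3 genes, 0.54 and 0.77. Over 1.5-fold were 4 and 5 of its 8 genes, beside 27.3% and 27.6% of all genes and 20.2% and 24.5% of the bright genes. Psmd11, a lid subunit, read 7156, 11786 and 12307 on the Th2-1st arrays, then 4890, 11478 and 9790 on those of Th2-4th. Its log2 ratio of stimulation was 0.72 and 1.23, and 4 other probe sets of Psmd11 above the array median gave 0.60 to 1.13 and 0.51 to 0.93. The lid subunit Psmd12 read 4382, 7676 and 7422 on the Th2-1st arrays, then 2814, 4854 and 5295 on those of Th2-4th, with log2 ratios of 0.81 and 0.79. The unstimulated array was the lowest of the 3 in each culture for both genes, and both stimulated arrays lay above it. Psmd7, the inactive partner of the deubiquitinase, rose from 2386 to 4184 at the Th2-1st stage and from 953 to 1930 at the Th2-4th stage, with log2 ratios of 0.81 and 1.02, where the spread was 0.76 at most among the core members in Th2-1st cells and 1.02 at most in Th2-4th cells. Psmd14, the deubiquitinase itself, changed from 8506 to 13101 at the Th2-1st stage and from 6019 to 10199 at the Th2-4th stage (log2 ratios of 0.62 and 0.76), and Psmd3, a scaffold of the lid, had log2 ratios of 0.46 and 0.87. Psmd6 and Psmd8, at 0.07 and 0.58 and at 0.33 and 0.12, and Psmd13, at 0.06 and -0.14, showed the smallest ratios of the lid in 1 culture or both. The other probe set of Psmd6 gave 0.49 and 0.53, so its small ratio at the Th2-1st stage rests on the brighter probe set.

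The promoters of Psmd11 and Psmd12 are shown since these lid genes rose in both cultures and share an ETS site. The site was in 4 of 6 lid genes with a promoter and in 26.0% of the bright genes. The other lid genes with it were Psmd13, with stimulation log2 ratios of 0.06 and -0.14, and Psmd6, with 0.07 and 0.58. Psmd14 lacked the site but read higher in both cultures (0.62 and 0.76). A link of the site to the stimulation ratios was not tested. Each sequence is the 250 bases before the start site in the direction of the gene, from RefSeq on GRCm38.p6. Capitals mark motif matches, CCGGAAG of ETS factors in either orientation and, at the start of Psmd12 only, TGACNNNGC of the antioxidant response element (ARE), the kind of site bound by NFE2L1, also called NRF1, which is known for raising proteasome genes.
Psmd11, chr11:80428365-80428614, plus strand: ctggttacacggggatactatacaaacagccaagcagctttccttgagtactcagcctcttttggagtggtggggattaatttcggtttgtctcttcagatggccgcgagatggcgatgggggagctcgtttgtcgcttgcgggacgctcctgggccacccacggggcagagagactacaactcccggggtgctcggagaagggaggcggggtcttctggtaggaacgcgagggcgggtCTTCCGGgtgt
Psmd12, chr11:107479278-107479527, plus strand: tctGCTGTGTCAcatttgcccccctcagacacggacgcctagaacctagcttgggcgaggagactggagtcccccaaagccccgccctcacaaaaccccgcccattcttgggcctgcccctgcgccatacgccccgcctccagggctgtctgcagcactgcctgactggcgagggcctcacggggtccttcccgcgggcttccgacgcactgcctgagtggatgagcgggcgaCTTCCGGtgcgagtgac

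The base of the 19S particle, which unfolds substrates, moved less than the lid. Its 6 ATPases all had ratios above 0 in both cultures, with medians of 0.22 and 0.30. Psmc5 had the highest ratio in Th2-1st cells and read 4249, 6230 and 6093 on the Th2-1st arrays, then 2340, 3455 and 3634 on those of Th2-4th, and the step from the unstimulated array was of like size in each culture (0.55 and 0.56). Psmc4 differed between the cultures, going from 11696 to 11870 at the Th2-1st stage and from 5538 to 8716 at the Th2-4th stage, log2 ratios of 0.02 and 0.65. Its other probe set gave 0.37 and 0.49, a smaller difference, so the contrast between the cultures rests on the brighter probe set. Psmc1 and Psmc3 stayed between 0.11 and 0.21. Among the 3 measured base subunits without ATPase activity, Psmd1, the largest, had 0.47 and 0.48, the scaffold Psmd2 0.26 and 0.07, and Psmd4, a receptor for ubiquitin chains, 0.29 and -0.26.

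In the 20S core, 13 of the 14 genes of the alpha ring and of the constitutive beta ring had ratios above 0 at the Th2-1st stage and 12 at the Th2-4th stage, with a median of 0.36 in both. The alpha ring had medians of 0.42 and 0.36. Psma3 led it at the Th2-1st stage (0.56 and 0.35) and Psma2 at the Th2-4th stage (0.53 and 0.59). Psma2 read 9126, 13210 and 13477 on the Th2-1st arrays, then 8578, 12921 and 12754 on those of Th2-4th, so the unstimulated array was the lowest in each culture by a like amount. Psma1 was the exception, going from 11931 to 10958 at the Th2-1st stage and from 10344 to 7267 at the Th2-4th stage, log2 ratios of -0.12 and -0.51. Its 3 other probe sets gave -0.43 to 0.45 and -0.83 to -0.08, so the direction at the Th2-1st stage depends on the probe set. Psma4, Psma5, Psma6 and Psma7 lay between 0.26 and 0.57 in either culture. The beta subunits without catalytic sites had lower medians, 0.17 and 0.21, and the Th2-1st median ran from -0.01 to 0.38 over the alternatives described below. Among these subunits, Psmb2 had 0.34 and 0.30 and Psmb3 0.31 and 0.11. Psmb4 was at 0.03 and 0.47 and Psmb1 at 0.03 and -0.40. The other probe set of Psmb4 gave 0.46 and 0.32, so its small ratio at the Th2-1st stage rests on the brighter probe set.

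The catalytic subunits split by type. The constitutive subunits Psmb5, Psmb6 and Psmb7, of chymotrypsin-like, caspase-like and trypsin-like activity, all read higher after stimulation, with medians of 0.34 and 0.46. Their counterparts Psmb8, Psmb9 and Psmb10 all read lower, with medians of -0.44 and -0.61. Most of these steps were smaller than the spread. Among the falls, only that of Psmb9 in Th2-4th cells passed its spread (0.64), and the others stayed within theirs (0.45 to 0.89). Among the rises, only that of Psmb7 in Th2-1st cells did so (spread of 0.76). Psmb5 read 6871, 8723 and 8563 on the Th2-1st arrays, then 4596, 6402 and 5951 on those of Th2-4th, and Psmb8, which takes its place, read 11917, 9217 and 8856 on the Th2-1st arrays, then 13321, 8701 and 8809 on those of Th2-4th. Psmb6 read 6200, 7734 and 7377 on the Th2-1st arrays, then 3327, 4136 and 4242 on those of Th2-4th, and its counterpart Psmb9 read 6664, 4929 and 4972 on the Th2-1st arrays, then 8284, 4106 and 3877 on those of Th2-4th. Psmb7 read 1703, 3008 and 3019 on the Th2-1st arrays, then 1090, 1499 and 1835 on those of Th2-4th, and its counterpart Psmb10 read 3787, 2473 and 2854 on the Th2-1st arrays, then 3273, 2811 and 3077 on those of Th2-4th. For each constitutive gene the unstimulated array was the lowest of its culture, and for each immunoproteasome gene it was the highest of its culture, without exception over the 6 genes and both cultures.

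The log2 stimulation ratio of Psmb8 minus that of Psmb5 was -0.71 for Th2-1st and -1.09 for Th2-4th cells. For Psmb9 and Psmb6 the differences were -0.75 and -1.33, and for Psmb10 and Psmb7 they were -1.44 and -0.68. Past 1.5-fold by themselves were Psmb7 upward (0.82) and Psmb10 downward (-0.62) in Th2-1st cells, and Psmb8 (-0.61) and Psmb9 (-1.01) downward in Th2-4th cells. The second probe set of Psmb8 also read lower, with log2 ratios of -1.12 and -0.82, and the other 5 catalytic genes have 1 probe set each.

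**Figure D2:**
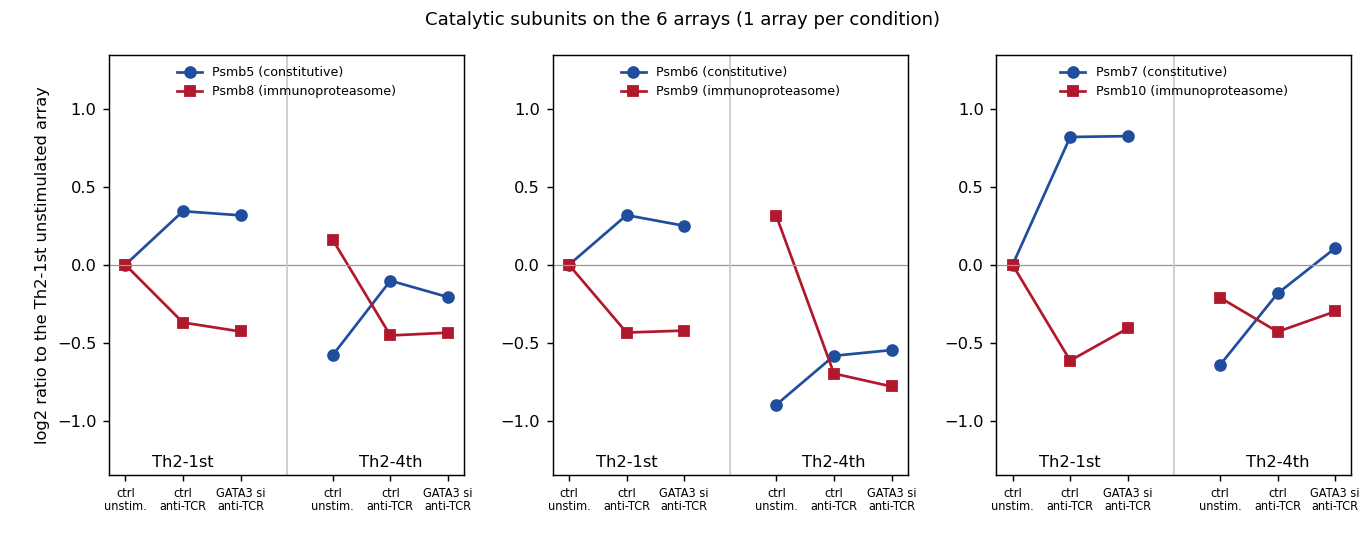
Log2 ratio of each array to the Th2-1st unstimulated array (vertical axis) for the constitutive catalytic subunits (blue circles) and the immunoproteasome subunits (red squares), 1 panel per pair, 1 array per point. In both cultures, every blue line goes up and every red line goes down from the unstimulated (ctrl unstim.) to the stimulated control array (ctrl anti-TCR), and the step on to GATA3 siRNA is small.

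The promoters of both members of the Psmb5 and Psmb6 pairs are shown to set the constitutive genes beside the genes that read lower. Those of Psmb5 and Psmb6 hold the ARE motif close to the start site, and none of the 3 immunoproteasome genes held it. No promoter was read for Psmb7. The motif was in 14.6% of members, 18.0% of bright genes and 14.0% of all genes with a promoter, so most genes lack it. A link of the motif to the split was not tested. Psmb8 and Psmb9 lie within the MHC region of chromosome 17, in opposite directions, with the peptide transporter gene Tap1 between them. Capitals mark the ARE in Psmb5 and Psmb6, TTCNNNGAA, the GAS element bound by STAT factors, in Psmb8, and CCAAT, read here on the opposite strand, in Psmb9.
Psmb5, chr14:54617996-54618245, minus strand: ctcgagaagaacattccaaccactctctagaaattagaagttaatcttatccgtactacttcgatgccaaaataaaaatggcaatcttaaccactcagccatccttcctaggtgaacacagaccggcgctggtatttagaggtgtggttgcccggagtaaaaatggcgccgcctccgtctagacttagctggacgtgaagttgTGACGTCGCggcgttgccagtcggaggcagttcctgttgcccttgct
Psmb8, chr17:34197945-34198194, plus strand: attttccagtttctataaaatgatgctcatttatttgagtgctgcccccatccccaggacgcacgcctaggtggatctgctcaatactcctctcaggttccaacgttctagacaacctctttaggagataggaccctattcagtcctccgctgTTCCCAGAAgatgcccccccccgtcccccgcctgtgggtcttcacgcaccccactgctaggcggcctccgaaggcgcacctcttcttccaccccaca
Psmb6, chr11:70525107-70525356, plus strand: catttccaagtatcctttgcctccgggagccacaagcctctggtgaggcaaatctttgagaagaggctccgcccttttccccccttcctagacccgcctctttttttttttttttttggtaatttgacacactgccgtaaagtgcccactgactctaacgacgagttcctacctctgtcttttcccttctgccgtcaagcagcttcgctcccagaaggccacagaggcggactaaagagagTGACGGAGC
Psmb9, chr17:34187331-34187580, minus strand: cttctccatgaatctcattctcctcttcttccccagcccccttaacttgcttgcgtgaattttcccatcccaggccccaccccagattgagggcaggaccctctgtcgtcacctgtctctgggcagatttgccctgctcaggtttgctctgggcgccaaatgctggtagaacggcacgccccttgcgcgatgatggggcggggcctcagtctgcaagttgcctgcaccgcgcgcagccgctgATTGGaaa

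Among the activators, Psme3 had the largest stimulation ratio of all core members. Psme3 encodes PA28 gamma, an activator of nuclear proteasomes, and read 1079, 2646 and 2797 on the Th2-1st arrays, then 559, 2074 and 1959 on those of Th2-4th. The stimulated arrays were 2.45-fold and 3.71-fold the unstimulated ones, log2 ratios of 1.29 and 1.89. A second probe set above the array median gave 0.90 and 1.80, and its last one lay below it. Psme1, the alpha subunit of the PA28 activator induced by interferon gamma, read 9282, 11346 and 11545 on the Th2-1st arrays, then 9027, 11394 and 9335 on those of Th2-4th, with log2 ratios of 0.29 and 0.34. Psme4, the activator PA200, had log2 ratios of -0.18 and -0.59, and its probe sets did not give one direction in Th2-4th cells, where one gave -0.57 and the 3 others above the array median 0.01 to 0.13. Psmf1, an inhibitor of the 20S core, had 0.07 and 0.15, while its 3 other probe sets gave -0.59 to -0.30 and -0.90 to 0.02, so no direction is given for it.

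The promoter of Psme3 is shown because it held 3 of the motifs. Capitals mark the ETS site CCGGAAG, the E-box CACGTG, the kind of site bound by Myc, and CCAAT on the opposite strand.
Psme3, chr11:101315963-101316212, plus strand: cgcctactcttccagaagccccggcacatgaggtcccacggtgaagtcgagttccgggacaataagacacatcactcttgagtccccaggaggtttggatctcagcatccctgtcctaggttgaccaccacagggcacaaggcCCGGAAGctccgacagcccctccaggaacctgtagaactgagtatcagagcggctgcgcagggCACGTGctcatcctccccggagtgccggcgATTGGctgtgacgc

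The chaperones that assemble the particle showed both directions. Psmd5, a chaperone of the 19S base, went from 2259 to 3351 at the Th2-1st stage and from 1504 to 3072 at the Th2-4th stage, with log2 ratios of 0.57 and 1.03, and in each culture the GATA3 siRNA array read highest. Psmd9 had 0.16 and 0.42, and Psmd10, known as gankyrin, -0.25 and -0.47. Among the chaperones of the 20S core, Psmg4 had log2 ratios of 0.64 and 0.84 and Psmg3, its partner, 0.52 and 0.49. Psmg1 and Psmg2, which form a pair, had 0.06 and 0.15 and -0.35 and -0.18. The genes that match by name only, Psmc3ip and Psme3ip1, had 0.18 and -0.22 and -0.13 and -0.14. The dim Psma8 read 13.9, 6.40 and 21.8 on the Th2-1st arrays, then 4.99, 20.4 and 4.09 on those of Th2-4th, a scatter at background from which no direction can be read.

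The stimulation ratios of the cultures come from different arrays. Over the 45 core members they had Pearson's r of 0.84 and Spearman's rho of 0.78 across genes, given as a description without a p, since genes are not independent replicates and share their arrays. The direction was the same for 42 of the 45 (93.3%), 35 upward and 7 downward, compared with 84.0% of the bright genes, where r was 0.90. Psmd4, Psmb1 and Psmd13 were the genes with opposite directions. The stimulation ratios of Psmc4 (0.63), Psme3 (0.60), Psmd11 (0.51), Psmd6 (0.51) and Psmd5 (0.46) were larger in Th2-4th than in Th2-1st cells by the log2 differences given, and those of Psmb9 (-0.58) and Psmd4 (-0.55) were lower, with no test of any of these differences. Those of Psmc4, Psmd11 and Psmd6 rest on the brightest probe set, since the others above the array median gave smaller differences or the opposite order.

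Most proteasome genes read lower at the Th2-4th stage. By more than their own spread, 16 of the 49 members did so in unstimulated and 18 in stimulated cells. How many of all genes did so was not counted, so no background stands beside these counts. Unstimulated Th2-4th cells read lower than unstimulated Th2-1st cells in 40 of the 49 members, with a median log2 ratio of -0.51, and stimulated Th2-4th cells read lower than stimulated Th2-1st cells in 45, with a median of -0.39. Of all 18194 genes, 7608 and 8184 read lower, with medians of 0.17 and 0.10, and the median of the bright genes was -0.01 in both. Under 1/1.5-fold were 19 members in unstimulated cells, where 20.3% of all genes were, and 15 in stimulated cells, beside 20.7%. With centred arrays these were 29 and 31 members. Over 1.5-fold was 1 member in each comparison, the dim Psmb11 and Psma8, beside 32.2% and 28.3% of all genes. Of the core members, 37.8% and 28.9% were under the limit and none was over 1.5-fold, whereas of the bright genes 19.5% and 14.3% were under it and 17.5% and 14.9% over it. The summed signal of the members made up at most 1.66% of the signal of all genes on a Th2-1st array, where stimulated cells had 1.66 and 1.62%, and 1.08, 1.21 and 1.26% on the Th2-4th arrays. The culture ratios and the stimulation ratios share their control arrays and are not independent of each other.

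**Figure D3:**
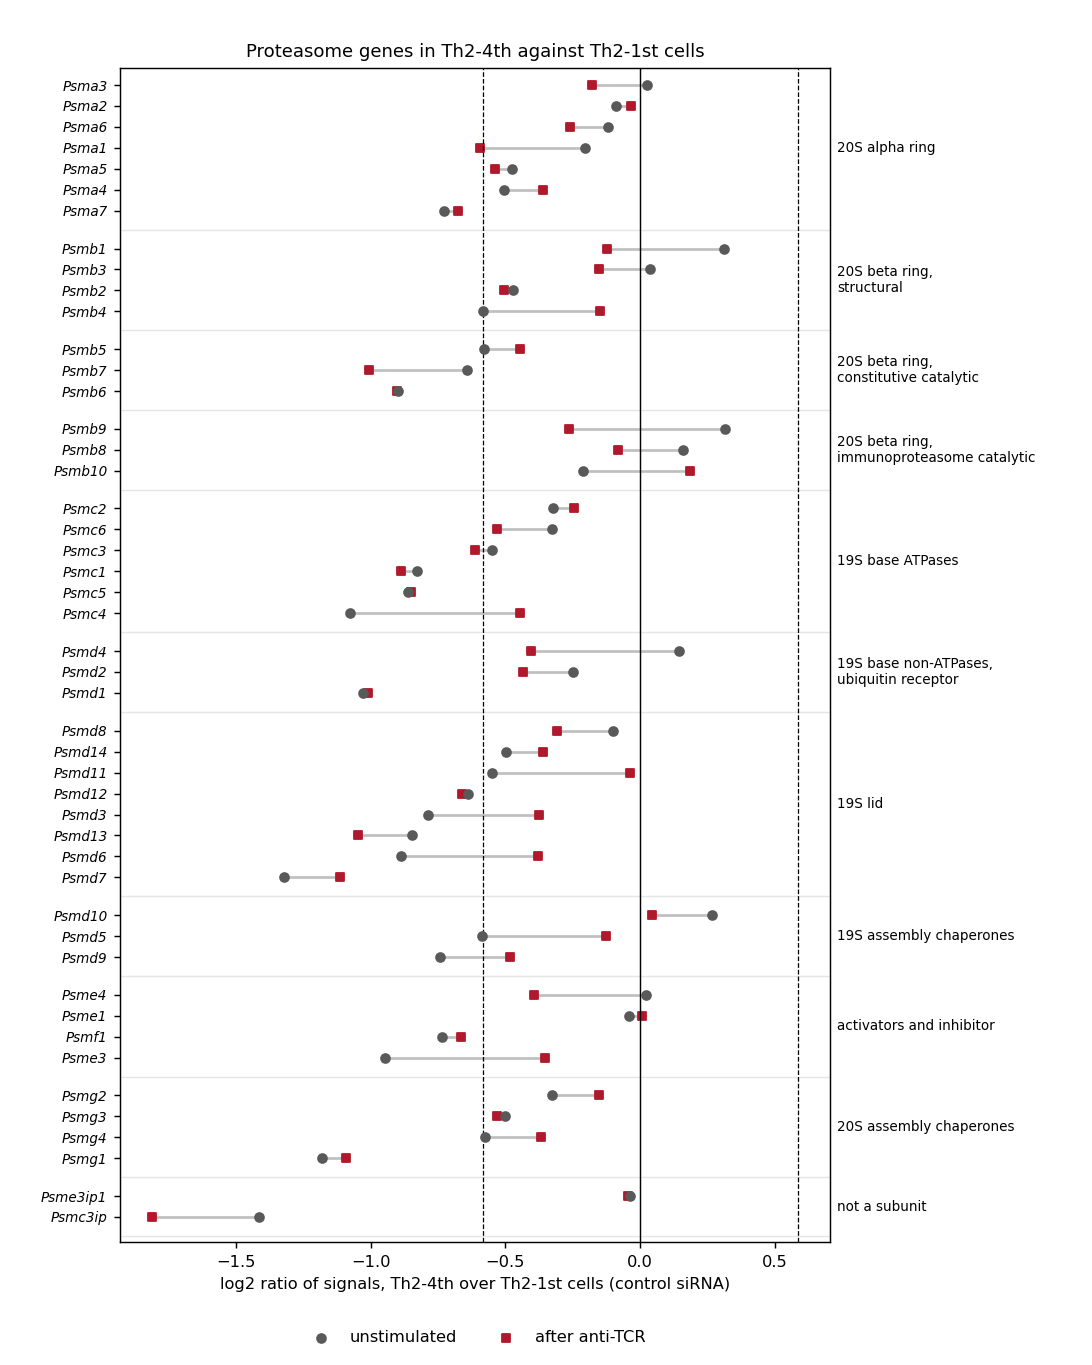
Log2 ratio of Th2-4th to Th2-1st cells (horizontal axis, control siRNA) for the 47 members above the array median on all 6 arrays, 1 row per gene, grouped by role. Grey circles are unstimulated cells, red squares anti-TCR-stimulated cells and dashed lines 1.5-fold. Most points lie left of 0, whereas the immunoproteasome subunits lie around 0, as do other members such as Psma2, Psma3, Psmb3 and Psme1.

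The lower level in Th2-4th cells was seen across the 19S particle. Of its 17 genes, 9 in unstimulated cells and 7 in stimulated cells were under 1/1.5-fold, with medians of -0.64 and -0.45. Of all genes, 20.3% and 20.7% were under this limit, and of the bright genes 19.5% and 14.3%. Psmd7 had the lowest core ratios, -1.32 and -1.12, with an unstimulated signal of 2386 in Th2-1st against 953 in Th2-4th cells. Its second probe set above the median gave -0.39 and -0.58. Psmd1 read 5407, 7464 and 6893 on the Th2-1st arrays, then 2650, 3704 and 4096 on those of Th2-4th, and all 3 Th2-4th arrays lay below all 3 Th2-1st arrays, at log2 ratios of -1.03 and -1.01. Psmc4 was at -1.08 in unstimulated and -0.45 in stimulated cells, and Psmc1 and Psmc5 lay between -0.89 and -0.83. The 20S chaperone Psmg1 read 2961, 3097 and 3151 on the Th2-1st arrays, then 1307, 1454 and 1381 on those of Th2-4th, less than 0.5-fold in Th2-4th cells in either state, log2 ratios of -1.18 and -1.09. Psmd13 had -0.85 and -1.05, but 2 of its other probe sets turned above 0 in unstimulated cells.

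The catalytic subunits split here too. Psmb6 was lower in Th2-4th cells, unstimulated and stimulated, by log2 ratios of -0.90 and -0.90, Psmb7 by -0.64 and -1.0 and Psmb5 by -0.58 and -0.45. Psmb8 was at 0.16 and -0.08, Psmb9 at 0.31 and -0.26 and Psmb10 at -0.21 and 0.19. In unstimulated cells, the differences between the immunoproteasome gene and its counterpart were 0.74 for Psmb8 and Psmb5, 1.21 for Psmb9 and Psmb6 and 0.43 for Psmb10 and Psmb7, and in stimulated cells they were 0.36, 0.64 and 1.19. By these probe sets, each immunoproteasome gene read higher in Th2-4th than in Th2-1st cells relative to its counterpart. For Psmb8 this depends on the probe set without stimulation, as its second one was at -0.63 and -0.34, below Psmb5 in unstimulated and above it in stimulated cells. Psme3 was at -0.95 and -0.35, Psme1 at -0.04 and 0.01, and Psmc3ip, a recombination factor that is no proteasome subunit, at -1.42 and -1.81.

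Other markers moved with the culture. The T cell markers Cd3d, Cd3e, Cd3g and Cd4 read higher in Th2-4th cells, by log2 ratios of 0.90 to 1.40 without stimulation, while Cd5, the fifth marker, was at 0.12 without and -0.60 with stimulation. Cd8b1 read 342, 313 and 444 on the Th2-1st arrays, then 110.4, 163 and 185 on those of Th2-4th, while Cd8a read 126, 162 and 152 on the Th2-1st arrays, then 124, 217 and 215 on those of Th2-4th. The summed signal of the 4 measured markers of CD8 T and NK cells was 523 to 1132 over the Th2-1st arrays and 325 to 1076 over the Th2-4th arrays. The part of these shifts in the lower proteasome signals was not tested.

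Knockdown of GATA3 left the proteasome genes close to their level with control siRNA. In Th2-1st cells the members had a median log2 ratio of -0.02 between the stimulated arrays with GATA3 and with control siRNA, and in Th2-4th cells it was -0.00. Over 1.5-fold in Th2-1st cells was 1 member, the dim Psma8, beside 21.6% of all genes, and under 1/1.5-fold was none, beside 12.2% (1, the dim Psmb11, with centred arrays). In Th2-4th cells, 1 member was over (the dim Psmb11, beside 17.4%) and 1 under (Psma8, beside 17.1%). None of the 45 core members was past 1.5-fold in either culture, where 2.90% of the bright genes were over and 2.15% under it in Th2-1st cells. The shares of bright genes were, for Th2-4th cells, 2.92% and 2.51%. The core ratios ran from -0.29 (Psmd7) to 0.21 (Psmb10) in Th2-1st cells and from -0.47 (Psmg4) to 0.53 (Psme4) in Th2-4th cells. Gata3 itself, at -1.44 and -1.70, lay far outside these ranges. The knockdown ratios share the stimulated control array with the stimulation ratios of the same culture.

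**Figure D4:**
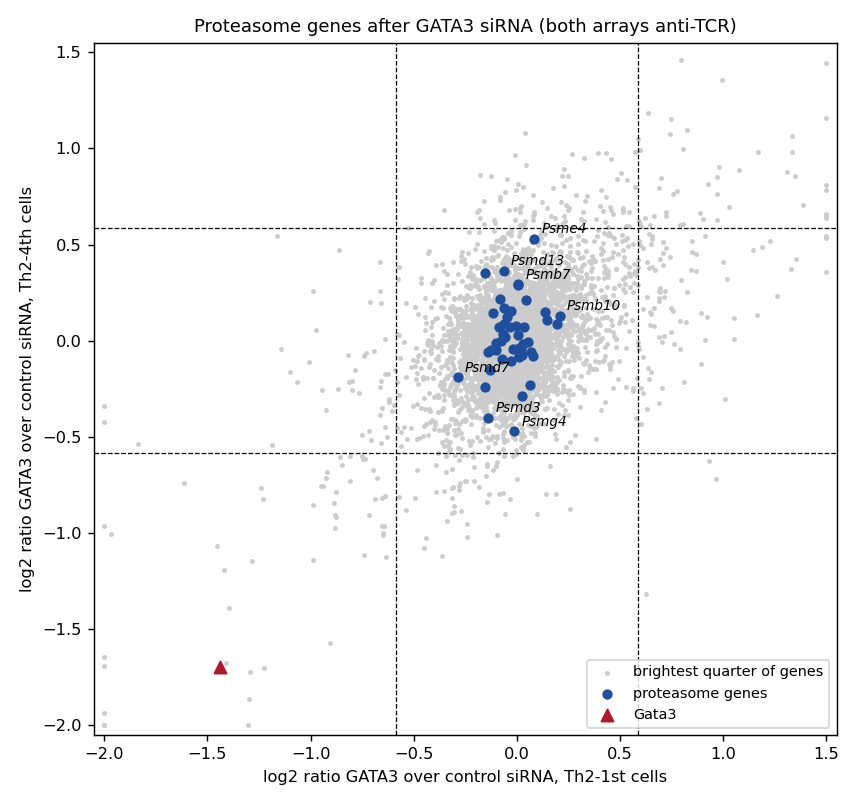
Log2 ratio of GATA3 siRNA to control siRNA, both after anti-TCR stimulation, in Th2-1st cells (horizontal axis) and in Th2-4th cells (vertical axis). Grey points are the 4549 bright genes, drawn at the edge where they lie beyond -2 or 1.5, blue points the 47 members above the array median on all 6 arrays, dashed lines 1.5-fold, and the blue points stay inside the dashed lines while Gata3 (red triangle) is at -1.44 and -1.70.

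The members with the largest knockdown ratios differed between the cultures. Psme4 read 3077, 2724 and 2885 on the Th2-1st arrays, then 3122, 2075 and 2995 on those of Th2-4th, so that its GATA3 siRNA array was close to the unstimulated one in Th2-4th cells (log2 ratio of 0.53) and the ratio in Th2-1st cells was 0.08. Of its other probe sets above the array median, the brightest gave 0.28 in Th2-4th cells and the 3 others -0.50 to -0.05. Psmg4 read 1370, 2130 and 2111 on the Th2-1st arrays, then 919, 1651 and 1192 on those of Th2-4th, with ratios of -0.01 and -0.47. Psmd3 had -0.14 and -0.40, Psmd13 -0.06 and 0.36, Psmb7 0.01 and 0.29, and Psme1 0.02 and -0.29. Psmb10 had 0.21 and 0.13 and Psmd7 -0.29 and -0.19, the same direction in both cultures. Over the core members the knockdown ratios of the cultures, which share no array, had r of 0.29 and rho of 0.23 across genes, and 23 of 45 (51.1%) had the same direction, compared with 60.2% of the bright genes, where r was 0.53. The differences between the immunoproteasome subunits and their counterparts stayed between -0.16 and 0.20 in the knockdown.

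Genes that work with the proteasome gave a mixed picture after stimulation. Of all genes, 27.3% at the Th2-1st and 27.6% at the Th2-4th stage were over 1.5-fold, and 28.0% and 33.1% under 1/1.5-fold, and the counts of every list below stand beside these shares. Of 10 measured partners, 2 were over 1.5-fold at each stage and none was under 1/1.5-fold, and the medians were 0.23 and 0.11 (-0.01 and -0.10 over all genes). The pair were the ubiquitin shuttles Rad23b, which read 4640, 7017 and 6528 on the Th2-1st arrays, then 2569, 5234 and 4698 on those of Th2-4th, and Ubqln4, with log2 ratios of 0.62 and 1.06. Pomp, which assembles the 20S core, had 0.21 and -0.22, and the deubiquitinases Usp14 and Uchl5 had -0.06 and -0.36 and 0.28 and -0.31. Of 3 measured genes of ubiquitin supply, none and 1 were over 1.5-fold (Uba6 at 0.42 and 0.64), with medians of 0.42 and 0.41.

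The genes around NFE2L1 had medians of 0.52 and 0.47 in 10 measured genes, with 4 and 3 over 1.5-fold and 2 and 2 under 1/1.5-fold, near or below the shares of all genes except for the 4. Nfe2l1 read 547, 796 and 848 on the Th2-1st arrays, then 580.4, 1026 and 863 on those of Th2-4th, log2 ratios of 0.54 and 0.82. Its small Maf partners Maff and Mafk rose by log2 ratios of 4.16 and 4.81 and of 1.75 and 1.29, with Maff below the array median before stimulation in both cultures. Nfe2l2, the related factor of oxidative stress, and Ngly1, the glycosidase that processes NFE2L1, read lower, at -0.67 and -1.32 and at -0.76 and -1.17.

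In the list of peptide supply to MHC class I, 2 and 1 of 13 genes were over 1.5-fold and 1 and 1 under 1/1.5-fold after stimulation, below the shares of all genes, with medians of 0.27 and -0.01. Tap1, which lies next to Psmb9, read 3109, 4019 and 3320 on the Th2-1st arrays, then 6610, 2896 and 2516 on those of Th2-4th, with log2 ratios of 0.37 and -1.19 where Psmb9 had -0.44 and -1.01. Tap2 had -1.06 and -0.43. Calr, a chaperone of the ER, was over 1.5-fold in both (0.99 and 1.22). In the interferon gamma axis, 5 and 5 of 10 genes were over 1.5-fold, beside 27.3% and 27.6% of all genes, and 2 and 2 under 1/1.5-fold, beside 28.0% and 33.1%, with medians of 0.46 and 0.40. Ifng itself read 23.3, 16961 and 23417 on the Th2-1st arrays, then 70.1, 38438 and 32458 on those of Th2-4th. Ifngr1, which encodes its receptor chain, fell from 2742 to 825 at the Th2-1st stage and from 3397 to 622 at the Th2-4th stage, while Irf1 had log2 ratios of 0.94 and -0.08. Jak2 (2.40 and 2.36) and Irf8 (2.44 and 3.59) read higher. In both cultures, Psmb8, Psmb9 and Psmb10 read lower on the stimulated arrays than on the unstimulated one. Ifng read higher on the stimulated arrays, and a link between them was not tested.

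Other large complexes were set beside the proteasome to show what stimulation did to them. The TRiC chaperonin, which folds actin and tubulin, had medians of 0.55 and 0.74 over 8 genes, with 4 and 5 over 1.5-fold, where 27.3% and 27.6% of all genes were, Cct3 (0.78 and 1.31), Cct6a (0.65 and 1.32) and Cct7 (0.63 and 0.87) among them. The COP9 signalosome, which is built like the 19S lid, had 0.10 and 0.18 over 10 genes, with 1 and 2 over 1.5-fold (Cops8 at 0.94 and 0.69), below the shares of all genes. The translation factor eIF3, a further relative of the lid, had 0.34 and 0.21 over 11 genes, with 3 and 3 over the limit (Eif3b at 0.63 and 1.61, Eif3d at 0.73 and 0.64), near these shares. The 46 cytosolic ribosomal protein genes had 0.44 and 0.06, and 74 genes of the respiratory chain 0.09 and -0.16. Between unstimulated cultures the medians were -0.51 for TRiC, -0.28 for COP9, 0.11 for eIF3, 0.62 for ribosomal proteins and -0.14 for the respiratory chain, beside -0.51 for the core members. No test set these medians against each other.

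**Figure D5:**
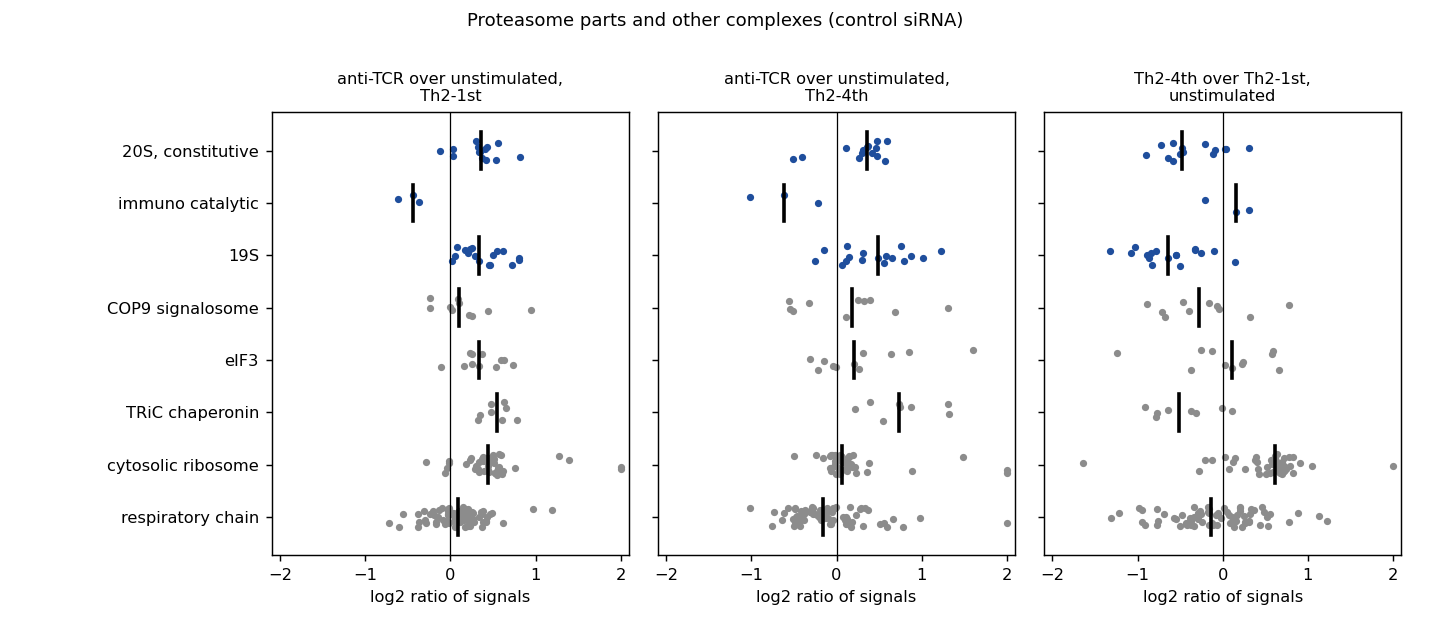
Log2 ratios (horizontal axes) of stimulation in Th2-1st (left) and Th2-4th cells (centre) and of Th2-4th over Th2-1st unstimulated cells (right) for genes of the proteasome (blue) and of other complexes (grey). Each point is 1 gene, drawn at the edge beyond 2 or -2, and black bars are medians. TRiC has its median on the same side of 0 as the 19S particle in all 3 panels. Most ribosomal protein genes lie right of 0 in the left and right panels and around 0 in the centre (median of 0.06).

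After GATA3 siRNA, the medians of these lists were -0.01 and -0.08 for TRiC, -0.08 and 0.02 for COP9, 0.04 and -0.13 for eIF3, 0.10 and -0.20 for ribosomal proteins, -0.02 and 0.02 for the respiratory chain, -0.04 and 0.01 for the partners, 0.03 and -0.14 for the genes around NFE2L1, -0.05 and -0.05 for ubiquitin supply, -0.05 and -0.19 for peptide supply and 0.11 and -0.15 for the interferon gamma axis. Outside the cell type markers, the genes of these lists past 1.5-fold in the same direction in both cultures were Rps16 (-1.34 and -0.65) and Ndufb4 (-0.74 and -0.92), both lower. Between unstimulated cultures the partners had a median of -0.39, the genes around NFE2L1 -0.00, ubiquitin supply -0.12, peptide supply 0.48 and the interferon gamma axis 0.77.

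Promoters were read for 41 of the 49 members, in windows of 300 bases from 250 before to 50 after the start site. Each motif was searched on both strands, and a gene with several windows counted if any of them held it. The ETS site CCGGAAG was in 16 of these 41 members (39.0%), in 26.0% of the bright genes with a promoter and in 9.93% of all 27025 genes with a promoter. It was in 9 of 14 genes of the 19S particle (64.3%), in 1 of 11 genes of the alpha and constitutive beta rings (9.09%) and in none of the 3 immunoproteasome genes. The ARE motif TGACNNNGC was in 6 members (14.6%, bright genes 18.0%, all genes 14.0%), namely Psmb5, Psmb6, Psmc6, Psmd12, Psmd9 and Psme4. It can overlap the AP-1 site TGANTCA, which was in Psmb5 and Psmd9 (4.88%, bright genes 5.63%, all genes 8.97%). In both of these genes the ARE and AP-1 matches lay apart. The interferon-stimulated response element, in its core form, was in Psmb3, Psmd4, Psmd9, Psme1 and Psmg4 (12.2%, bright genes 3.71%, all genes 3.99%). The GAS element was in 7.32% of members, 8.06% of bright genes and 9.55% of all genes with a promoter. The E-box was in 12.2%, 12.9% and 8.09% of these, and CCAAT in 39.0%, 42.2% and 41.1%. These are matches of letters, not sites of binding.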

How the data were processed

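RNA of 6 cell samples, 1 per condition, was hybridised to Affymetrix arrays of the mouse genome. The values the authors deposited are linear signal intensities, 1 for each probe set. They came from the Expression Console of Affymetrix. Its version and its algorithm were not given in the sources used here. The deposited intensities were already scaled to a common trimmed mean, so a rise shared by most genes cannot be seen. No detection call or background value was used here, the number of arrays limits the precision, and 0 columns were left unused.

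By the platform annotation, 34958 of 45101 probe sets named a single gene, 932 several and 9211 none, and 34754 matched a RefSeq gene for current symbols. For each gene, log2 ratios of array pairs were computed from the probe set chosen as described, with no pseudocount and no filter. Over 1.5-fold counted as higher and under 1/1.5-fold as lower, and 2-fold, the limit of the study, was an alternative. The spread was 1.4826 times the median absolute deviation in 20 bins of signal. The counting was tested on simulated data. No test was run, since each group has 1 array.

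The members, role groups and further lists (partners, control by NFE2L1, ubiquitin supply, peptide supply to MHC class I, interferon gamma axis, COP9 signalosome, eIF3, TRiC, and markers of T, Th2, CD8 T and NK, B, myeloid and erythroid cells) were chosen with earlier results of these data known. Genes were named by a rule: the catalytic subunits and PA28 genes, the highest and lowest ratio of each role group in stimulation and knockdown, members past 2-fold or below the array median on all arrays, members that are no subunits, Gata3, and up to 4 genes of each further list past 1.5-fold in the same direction in both cultures. Psma7, Psmd6, Psmd8, Psmd12 and Psmd14, and other list genes, were named after their values were seen. List genes without a probe set of their own were not analysed here. The Th2 markers Il4, Il5, Il13, Ccr8 and Gata3 had a median log2 ratio of 6.11 and 5.98 after stimulation.

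Alternatives were averaging all probe sets of a gene, dropping probe sets prone to cross-hybridisation, 2 centrings, quantile normalization, and the array median used as a filter or as a floor. Promoters came from RefSeq (GRCm38.p6). The tools were Python 3.11.15, numpy 2.4.6, pandas 2.3.3, scipy 1.17.1 and matplotlib 3.10.9.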

Additional observations from a re-analysis of the deposited data

Results flagged for a closer look

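Psmb11, the thymus-specific catalytic subunit, had ratios of opposite sign after anti-TCR stimulation, with a log2 ratio of 3.51 for Th2-1st and of -2.24 for Th2-4th cells. Its signals before and after stimulation were 3.22 and 36.6 for Th2-1st and 59.1 and 12.5 for Th2-4th cells, below the array median on all 6 arrays, a level from which no direction can be read. The difference between the cultures was not tested, and it rests on 1 array per condition.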

How the results depend on the processing

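No paired analysis was possible because each condition has 1 array and no result comes from a test. Of the medians and counts over the members under the alternatives, 74 values stayed near the main one and 16 moved. Near meant, for a median, within the median spread of the members, whatever the sign, and for a count within a factor of 1.5. Centring the arrays on all genes raised every stimulation ratio of Th2-1st cells by 0.21 and of Th2-4th cells by 0.13 and changed those of the knockdown in Th2-1st cells by -0.16 and those of the culture by -0.16 without and -0.24 with stimulation. This centring took the members past 1.5-fold from 10 to 20 (stimulation, Th2-1st), from 1 to 2 (knockdown, Th2-1st) and from 16 to 32 (culture, stimulated), and the knockdown median in Th2-1st cells from -0.02 to -0.17. Quantile normalization lowered the median of all genes by 0.15 between the unstimulated cultures. With a limit of 2-fold, 3 and 7 members were past it in stimulation and 7 and 8 in the culture comparisons. The counts for the knockdown, 1 and 2 with the main choices, were 4 and 4 with the mean over probe sets, 2 in Th2-1st cells under quantile normalization, 4 in Th2-4th cells once probe sets prone to cross-hybridisation were dropped, and 0 and 0 with the filter or with the floor at the array median. The median of the core members kept its sign under every alternative in stimulation (0.20 to 0.53 and 0.23 to 0.47) and culture (-0.67 to -0.41 and -0.64 to -0.33), and so did the immunoproteasome subunits in stimulation (-0.63 to -0.22 and -0.77 to -0.48). In the unstimulated culture comparison the latter turned (-0.21 to 0.16).

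Among single genes, 1923 values differed from the main ratio by less than its spread, whatever their sign, 174 moved by more and 27 reversed. A value counted as reversed only where the main ratio was past 1.5-fold and the sign turned, and the cause was not tested. With the array median as a floor, Psma8 went to -0.026 in stimulation of Th2-4th cells and 0.25 between unstimulated cultures, and Psmb11 to -0.017 in stimulation of Th2-1st cells, -0.037 in the knockdown of Th2-4th cells and 0.24 between stimulated cultures. Other probe sets turned Psmd11 (-1.54 and -1.81), Psme4 (0.011, 0.15, 0.059 and 0.13) and Psmg4 (-0.34) in stimulation of Th2-4th cells. Between unstimulated cultures they turned Psmd13 (0.49 and 0.19, the latter also without cross-hybridising probe sets), Psmd7 (0.77) and Psmf1 (0.54, 0.32 and 0.46, and 0.15 as the mean). Between stimulated cultures they turned Psmc1 (1.11, and 0.11 as the mean), Psmd13 (0.66), Psmd7 (0.60) and Psmf1 (0.35 and 0.77, and 0.0627 as the mean). The turned probe sets of Psmd11, Psmg4, Psmd7 and Psmc1, and the one of Psme4 at 0.15, lay below the array median on all arrays, so their ratios give no direction. Of 40 other probe sets above the median on all arrays, in 24 genes, 30 and 32 had the direction of the chosen one in stimulation, 28 and 29 in culture and 25 and 25 in the knockdown.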
